A study of Homo sapiens with 5 samples.

Results

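ESM1-NES is a form of ESM1 that was delivered by lentivirus to 22Rv1 cells, an established human prostatic carcinoma line of luminal epithelial character, and it was compared with its empty vector, Vector-2. NES is the usual short form of nuclear export signal and NLS that of nuclear localisation signal, although no label writes either in full. The comparison rests on 2 libraries, 1 per group, of the 5 in the study, and covered 12902 of the 26506 listed genes, namely those with a mean of 1 FPKM or more over both libraries. FPKM is the number of fragments scaled by transcript length and by library size. All groups were 22Rv1 cells in RPMI-1640 medium with 10% FBS, from which total RNA was taken 72 hours after the virus was added. Vector-2 carried the genotype label control and ESM1-NES that of overexpression of the tagged form. The other library of the same table, ESM1-NLS, shares Vector-2 as its control and is given beside the values. Vector-1 is the empty vector of cells given ESM1 without an added signal, and its FPKM values are in a table that was normalised separately. The promoter of the construct, the tag sequences and the number of infected cells are not given in the sources used here. With 1 library per group there is no replicate error and no test across samples. Each ratio of FPKM is followed by its exact 95% Clopper-Pearson interval, which covers only the error of counting reads.

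ESM1, also called endocan, is a proteoglycan that cells normally secrete. It carries a single dermatan sulphate chain and is best known from activated endothelium and tumour vessels. A nuclear export signal is a short peptide that the receptor XPO1 binds in the nucleus together with RAN, so that the cargo leaves through the nuclear pore. β-catenin, encoded by CTNNB1, is both a junction protein and the transcriptional effector of the Wnt pathway, and it is active in the nucleus. The study's title links ESM1 in the nucleus with stemness and β-catenin, and the form with the NES is the counterpart of the form with the NLS.

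Vector-2 held 24322216 expected counts, ESM1-NES 18447256 and ESM1-NLS 19975113. Their FPKM values summed to 529155, 575664 and 524485, so the values of each gene are shares of unequal totals. All 10 luminal prostate markers were at 1 FPKM or more in both libraries, with sums of 1318 FPKM in Vector-2 and 1382 FPKM in ESM1-NES. Endothelial markers summed to 0.09 and 0.03 FPKM, with 2 and 3 of 5 at 0, and basal epithelial markers to 0.21 and 0.09 FPKM. Leukocyte markers summed to 2.39 and 1.45 FPKM, kidney markers, for packaging cells, to 3.42 and 3.3 FPKM, and fibroblast and smooth muscle markers to 8.45 and 9.91 FPKM. Neuroendocrine markers, which 22Rv1 also carried in the vector library, summed to 132.9 and 137.4 FPKM. In RNA of a whole culture, fewer cells of a type and less RNA per cell cannot be told apart.

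ESM1 was listed at 0 FPKM in Vector-2, at 3431 FPKM in ESM1-NES and at 2627 FPKM in ESM1-NLS. For ESM1 all 3 libraries thus matched their labels, though reads of the gene do not show the tag. Against a floor of 3 reads in the vector library, the level in ESM1-NES was at least 56031-fold higher, and ESM1 took 0.691% of its reads. The ratio of ESM1-NES to ESM1-NLS was 1.31 (1.3 to 1.32) in FPKM and 1.19 in TPM, with 1 library each and the interval covering counting error only.

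Outside ESM1, few genes differed by much. Of the 12902 genes, 9 (0.0698%), ESM1 among them, lay 2-fold or more above Vector-2 in ESM1-NES. Another 20 (0.155%) lay 2-fold or more below it, on the scale of log2(FPKM + 1). At 1.5-fold, 50 genes (0.388%), again with ESM1, were higher and 279 (2.16%) lower. The counting interval of the ratio did not include 1 for 44 of the 50 and for 265 of the 279. For 2 of the 50, ESM1 among them, and 6 of the 279 no interval was formed, since 1 library held 0 FPKM. The genes were picked by the same reads that gave the intervals, so these counts are no separate support. The median over all genes was -0.03, with 6959 of the 12902 below 0 and 5910 above. Set against ESM1-NLS, 7992 were lower in ESM1-NES and 4855 higher. The lower genes were mostly long: their median effective length was 6345 bases against 2808 over all genes, and 63.1% of them were over 4000 bases against 30.1% of all. The higher genes were short, with a median of 875 bases. In ESM1-NLS, which has the same control library, 263 of the 279 lay below Vector-2 too, 31 of them by 1.5-fold, and 40 of the 50 lay above it, 13 of them by 1.5-fold. Over all 12902 genes, 5924 lay below Vector-2 in ESM1-NLS and 6928 above it. The shared control ties the 2 comparisons, so these counts are no independent repeat.

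The difference ran through the whole range of transcript lengths. The 852 protein-coding genes of up to 1000 bases had a median log2 difference of 0.20, and 12.8% of them lay below 0. It was 0.13 for 1000 to 2000 bases and -0.01 for 2000 to 4000 bases. For 4000 to 8000 bases it was -0.20, with 81.6% below 0. For the 571 genes over 8000 bases the median was -0.40, 96.8% lay below 0 and 104 of them (18.2%) were at least 1.5-fold lower. In ESM1-NLS the shortest and the longest class had medians of -0.04 and -0.18, so short genes were not higher there. Scaling by TPM in place of FPKM shifts the median of all genes by -0.12, and the longest class then lay at -0.52.

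**Figure D1:**
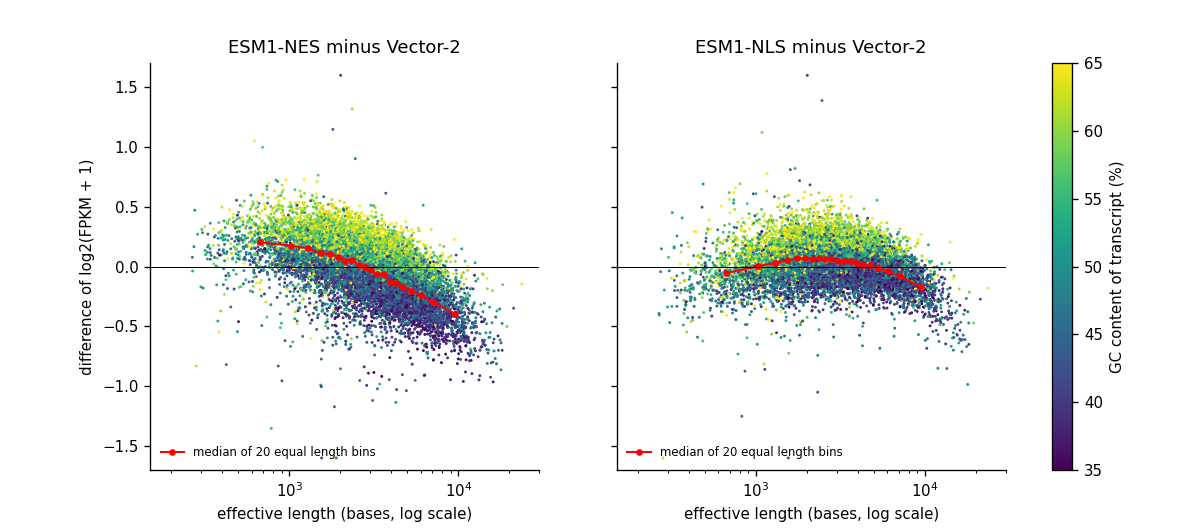
Difference of log2(FPKM + 1) from Vector-2 for protein-coding genes (vertical axis, drawn within ±1.6, with ESM1 and other genes beyond placed at that edge) against effective length in bases (horizontal axis, log scale). The colour of each point gives the GC content of the transcript in percent, and the red line joins the medians of 20 equal length bins. In ESM1-NES the medians go from 0.20 for genes of up to 1000 bases to -0.40 for those over 8000 bases, while in ESM1-NLS both ends lie below 0.

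Base composition followed the same direction. Protein-coding genes with a transcript GC content under 40% had a median of -0.24 and those with 60% or more a median of 0.22. Within each length class the median was higher at 60% GC or more than at under 40% GC, and within each GC class it was lower for genes over 8000 bases than for those of up to 1000 bases. Genes over 8000 bases went from -0.50 at under 40% GC to -0.05 at 60% or more. Genes of up to 1000 bases went from 0.10 to 0.31 between the same GC classes. In ESM1-NLS, genes of 2000 to 4000 bases went from -0.03 at under 40% GC to 0.20 at 60% or more, where ESM1-NES went from -0.17 to 0.21. Across 7775 coding genes whose mean was at least 5 FPKM, Spearman's rho of the difference with effective length was -0.64 for ESM1-NES and -0.19 for ESM1-NLS. With GC content it was 0.72 and 0.60. These are descriptions across genes, which share the libraries and are not replicates.

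**Figure D2:**
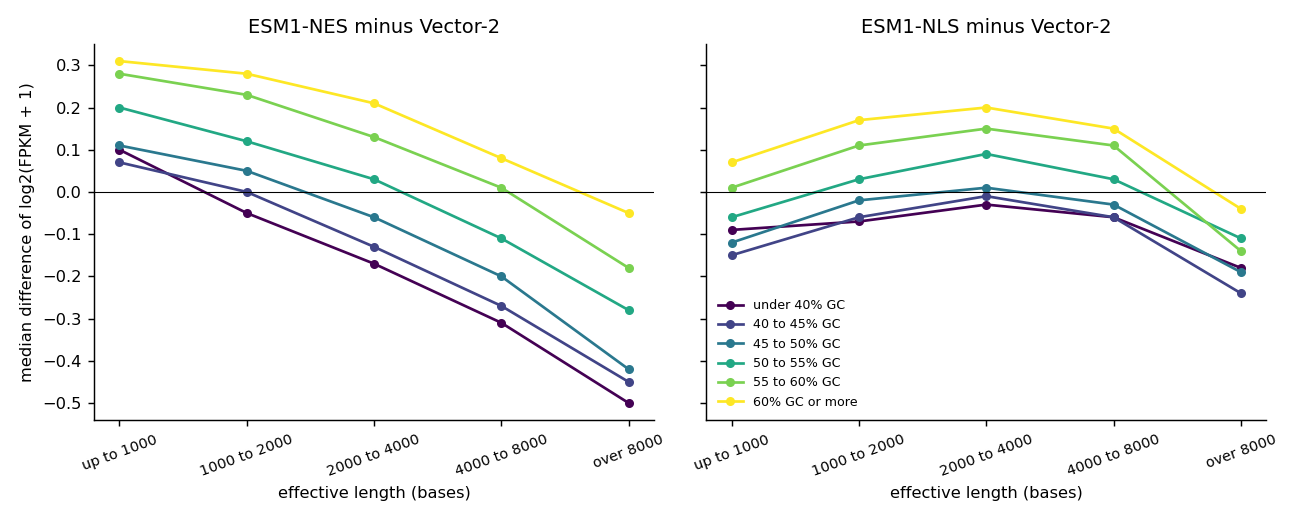
Median difference of log2(FPKM + 1) from Vector-2 (vertical axis) by class of effective length in bases (horizontal axis), with a line for each class of transcript GC content, for ESM1-NES (left) and ESM1-NLS (right). In ESM1-NES the lines are spread by GC and all slope down with length, from 0.31 for short GC-rich genes to -0.50 for long genes under 40% GC, whereas in ESM1-NLS the GC lines are spread but highest at middle lengths.

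The 3′ UTR, the part of the transcript after the stop codon, showed the gradient too. Genes with a 3′ UTR of up to 300 bases had a median of 0.14 and those with more than 4000 bases a median of -0.31, with 94.1% of the latter lower in ESM1-NES. In each of 5 classes of coding length the median was lower for the longest 3′ UTR class than for the shortest. For coding parts of 500 to 1000 bases it went from 0.21 to -0.22. For coding parts over 4000 bases it went from -0.10 to -0.47. Spearman's rho was -0.56 with the length of the 3′ UTR, -0.34 with that of the coding part and -0.15 with that of the 5′ UTR. UTR and coding lengths come from reference transcripts of a newer build than the one used for counting.

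**Figure D3:**
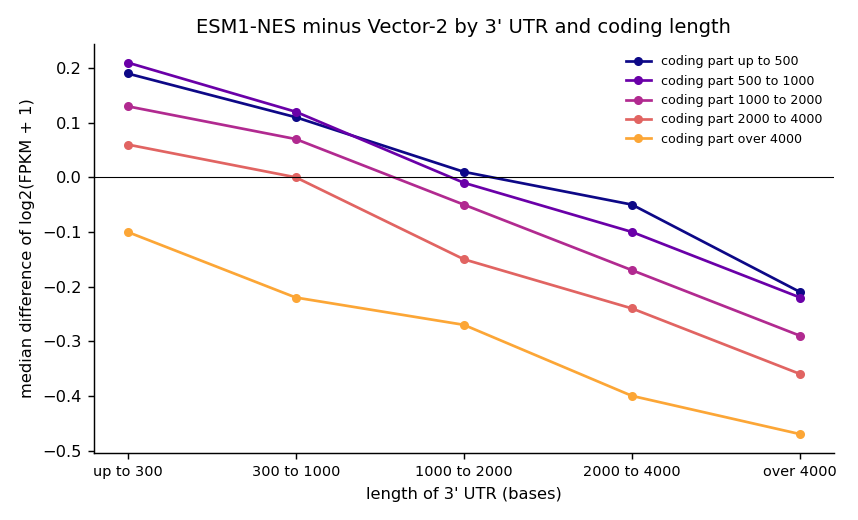
Median difference of log2(FPKM + 1) between ESM1-NES and Vector-2 (vertical axis) by length of the 3′ UTR in bases (horizontal axis), with a line for each class of coding length in bases. Every line is lower at its right end than at its left end, and the longest coding class lies lowest, from -0.10 to -0.47.

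Since the groups are single libraries, the construct and the library cannot be told apart as the source of this gradient. Library properties moved with it. The effective length that the authors' quantification gave to 1104 well-counted genes was shorter than in Vector-2 by a median of 5.3 bases in ESM1-NES and by 3.0 bases in ESM1-NLS. Effective length is the transcript length less an allowance for the estimated fragment length. The part of fragment length or RNA quality in the gradient was not tested. The isoform estimates themselves moved little: of 8465 genes with enough reads, 1 had an effective length at least 20% longer in ESM1-NES and 0 had a shorter length by that much. That gene was ETNK1, an ethanolamine kinase, at 7039 bases against 5737 in Vector-2. It was chosen after its values were seen.

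For these reasons each gene is also given relative to genes of its own length, as the difference minus the median of the genes in the same of 20 equal length bins. The longest bin has no upper limit, so the longest genes are set beside shorter ones too. On the length-adjusted scale 20 genes (0.155%), ESM1 among them, lay 1.5-fold or more above 0 and 147 (1.14%) as far below it. Of the 147, 124 also lay below Vector-2 in ESM1-NLS, against 5924 of all 12902 genes. With bins of both length and GC content the counts were 14 and 115.

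The longest transcripts gave the plainest view of the gradient. A list of 54 genes with giant transcripts had 51 measured members. All 51 were lower in ESM1-NES than in Vector-2, 22 of them by 1.5-fold, and all 51 were lower in ESM1-NLS too. Of all 12902 genes, 6959 were lower in ESM1-NES and 5924 in ESM1-NLS. The median of the list was -0.55 in ESM1-NES and -0.43 in ESM1-NLS. VPS13A, a lipid transfer protein of organelle contact sites, was at 10.7 FPKM in Vector-2, 5.0 in ESM1-NES and 7.28 in ESM1-NLS. Its relative VPS13C was at 10.0, 4.85 and 6.61 FPKM. The ratio of ESM1-NES to Vector-2 was 0.469 (0.435 to 0.504) for VPS13A and 0.485 (0.453 to 0.518) for VPS13C. The histone methyltransferase gene KMT2C was at 12.8, 6.83 and 8.24 FPKM in the same order, and its relative KMT2A at 10.8, 5.94 and 6.22 FPKM. For both, the vector library was highest. AHNAK, a giant scaffold protein, was at 50.2 FPKM in Vector-2, 27.1 in ESM1-NES and 24.9 in ESM1-NLS, lowest in the form with the NLS. The longest length bin has no upper limit and held both A1CF, at 9261 bases, and AAK1, at 21269 bases. The list's median length was 13415 bases, so part of the gradient can remain after the adjustment. Relative to the genes of their bins, 11 of the 51 lay above 0 and the list's median was -0.16. PLEC, which encodes the cytoskeletal linker plectin, was among those above, at 0.29, and had a ratio of 0.925 (0.872 to 0.98). Chromatin regulators, whose measured members had a median length of 5304 bases, lay below 0 in 34 of 44 cases, against 6959 of all 12902 genes. Their median was -0.16, or -0.02 relative to genes of their length.

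At the short end stood the machinery of translation and respiration. Of 79 cytosolic ribosomal protein genes, 78 were higher in ESM1-NES than in Vector-2, against 5910 of all 12902 genes. Of the 79, 0 were 1.5-fold higher, and their median was 0.20. The median was 0.08 with TPM. All 79 were higher in ESM1-NES than in ESM1-NLS, against 4855 of all 12902 genes. In ESM1-NLS 57 of the 79 lay below Vector-2, against 5924 of all genes, and the median was -0.06. For ESM1-NES the median relative to genes of their length was 0.06, with 53 of 79 above 0. It was also 0.06 relative to genes of their length and GC content. RPL21, of the large subunit, was at 1137 FPKM in Vector-2, 1671 in ESM1-NES and 1069 in ESM1-NLS. RPL13, also of the large subunit, was at 373.8, 428.4 and 367.9 FPKM. In both genes ESM1-NES was the high library and the other 2 were close to each other. The ratio was 1.47 (1.44 to 1.5) for RPL21 and 1.15 (1.13 to 1.16) for RPL13. RPL21 has many processed copies in the genome, and its copy RPL21P28 went the other way, with a ratio of 0.729 (0.71 to 0.749). The reads of RPL21 and RPL21P28 together had a ratio of 1.07 (1.05 to 1.09) per mapped read, so the value of RPL21 alone is uncertain. RPS15A, at 2041, 2016 and 1674 FPKM, was the member below 0, with a ratio of 0.988 (0.967 to 1.01).

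The nuclear genes of oxidative phosphorylation, the respiratory complexes of the mitochondrion, lay above 0 in 56 of 62 cases, against 5910 of all 12902 genes. Their median was 0.16, and -0.09 in ESM1-NLS. Relative to genes of their length the median was 0.07, with 36 of 62 above 0. The complex I subunit gene NDUFS7 was at 81.2 FPKM in Vector-2, 117.3 in ESM1-NES and 95.4 in ESM1-NLS. COX6B1, of complex IV, was at 330.1, 470.9 and 328.3 FPKM. Their ratios were 1.45 (1.34 to 1.56) and 1.43 (1.37 to 1.49). NDUFS1, a complex I subunit with a transcript of 3403 bases, went the other way, at 58.6, 50.2 and 58.1 FPKM. Of 75 mitochondrial ribosomal protein genes 59 lay above 0, against 5910 of all 12902 genes. Their median was 0.13, or 0.01 relative to genes of their length. Proteasome subunits, which degrade ubiquitin-tagged proteins, lay above 0 in 33 of 41 cases, against 5910 of all 12902 genes. Their median was 0.15, or 0.06 relative to length and 0.11 relative to length and GC content. With TPM the medians of these lists were 0.04, 0.02 and 0.03. Translation initiation and elongation factors lay at 0.07, but at -0.06 with TPM.

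Next come the single genes that lay lowest for their length. SFT2D2, a membrane protein gene, was at 11 FPKM in Vector-2, 3.69 in ESM1-NES and 6.22 in ESM1-NLS. PANK3, a pantothenate kinase of coenzyme A synthesis, was at 24.7, 11.7 and 21.1 FPKM. ZNF121, a zinc finger gene, was at 9.72, 4.35 and 8.91 FPKM. In all 3 genes ESM1-NES was the low library and ESM1-NLS lay between. The ratio to Vector-2 was 0.336 (0.244 to 0.456) for SFT2D2, 0.472 (0.433 to 0.514) for PANK3 and 0.448 (0.362 to 0.55) for ZNF121. ESM1-NLS had ratios of 0.566, 0.854 and 0.917 for the same genes.

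The others of the 10 lowest beyond their length were SMN2, described with its copy below, ZBED6, AGO2, TMED8, DDI2, MSI2 and TROVE2. ZBED6, a transcription factor encoded within an intron of ZC3H11A, was at 8.73, 3.89 and 6.82 FPKM in Vector-2, ESM1-NES and ESM1-NLS. AGO2, the slicing Argonaute of the microRNA pathway, was at 10.3, 4.7 and 7.53 FPKM. TMED8 was at 10.6, 5.0 and 9.32 FPKM. DDI2, a protease that activates the transcription factor NRF1 of proteasome genes, was at 14.3, 6.91 and 12.6 FPKM. The vector library was the highest and ESM1-NES the lowest in each. MSI2, an RNA-binding protein of stem and progenitor cells, was at 21.7, 12.3 and 18.7 FPKM, with a ratio of 0.566 (0.498 to 0.642). TROVE2, which encodes the RNA-binding protein Ro60, was at 16.2, 8.26 and 13.6 FPKM, with a ratio of 0.511 (0.457 to 0.571).

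These 10 genes shared a feature of annotation. In 9 of them the longest reference transcript was more than 2 times as long as the effective length that the authors' values imply, which held for 801 of 7775 protein-coding genes (10.3%). The effective lengths of the 10 spanned 782 to 3430 bases and their longest reference transcripts 1550 to 14581 bases. Over all coding genes with a longest transcript of 2 to 3 times the effective length, the median relative to length was -0.03, and it was -0.07 above 5 times. Whether reads of a longer transcript were assigned to a shorter annotated one was not tested.

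GUCY1A2, a soluble guanylate cyclase subunit with an effective length of 16094 bases, was at 23.2, 11.4 and 18.3 FPKM, a ratio of 0.492 (0.472 to 0.511) to Vector-2. Relative to genes of the longest bin, which has no upper limit, it lay at -0.58, and VPS13A at -0.57. Both were among the 10 lowest before but not after the length adjustment.

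At the upper end, no coding gene off the Y chromosome whose mean was at least 5 FPKM, other than ESM1, reached 2-fold. BSCL2, which encodes seipin, a protein of lipid droplet formation, was at 14.7 FPKM in Vector-2, 25.7 in ESM1-NES and 22.5 in ESM1-NLS. EGFL7, a secreted factor best known from endothelium, was at 4.38, 7.92 and 6.12 FPKM. TEN1, a subunit of the CST complex at telomeres, was at 7.29, 11.9 and 8.08 FPKM. CENPM, a centromere protein, was at 26.1, 39.7 and 24.3 FPKM. ESM1-NES was the high library in all 4, and CENPM in ESM1-NLS was near the vector. The ratios were 1.75 (1.56 to 1.96) for BSCL2, 1.81 (1.44 to 2.28) for EGFL7, 1.64 (1.32 to 2.02) for TEN1 and 1.53 (1.36 to 1.71) for CENPM. C19orf24, PLPP2, MBD3L2, IFI27L1 and SNCG had ratios between 1.55 and 1.61. Their effective lengths, with those of TEN1 and CENPM, lay between 592 and 1231 bases. Among genes high for their length were the cation channel genes PIEZO1 and TRPM2, which lay at 0.50 and 0.56 relative to length, but at 0.21 and 0.30 relative to length and GC content. LRPAP1, a chaperone of lipoprotein receptors, VARS2, a mitochondrial valyl-tRNA synthetase, and the genes LRRC14, HMHA1 and OAF lay between 0.49 and 0.54 on the first scale and between 0.25 and 0.30 on the second.

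**Figure D4:**
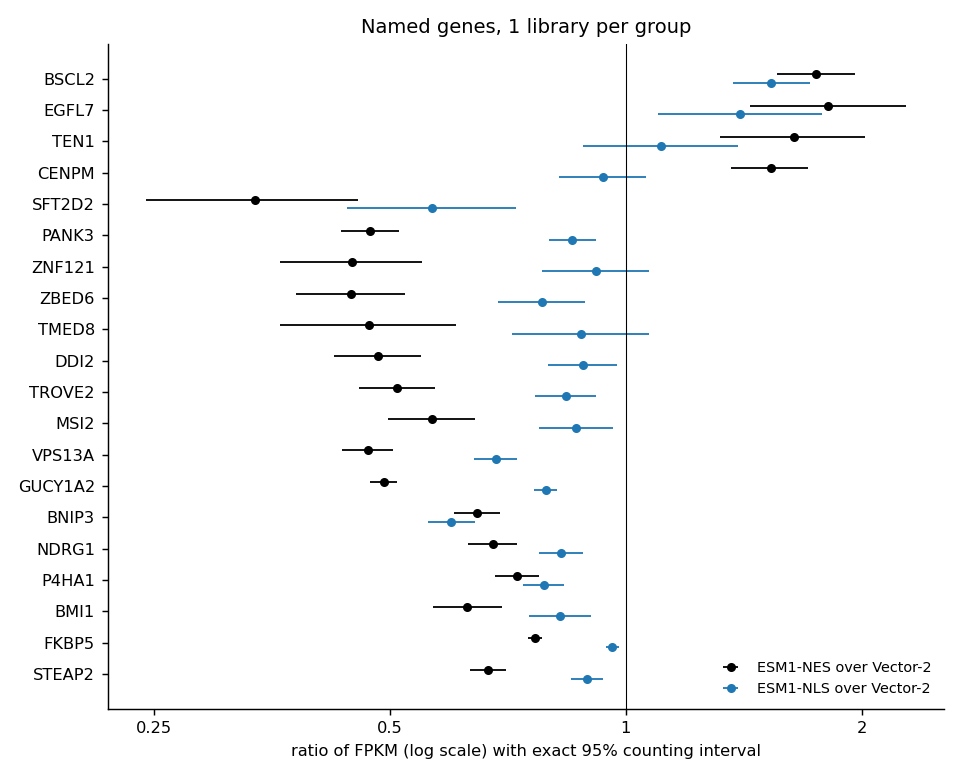
Ratio of FPKM to Vector-2 (horizontal axis, log scale) for 20 named genes, for ESM1-NES (black) and ESM1-NLS (blue), with bars for the exact 95% counting interval, 1 library per group. SFT2D2, at 0.336, lies furthest to the left in ESM1-NES and EGFL7, at 1.81, furthest to the right, and BNIP3 is lower in ESM1-NLS (0.599) than in ESM1-NES (0.646).

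The Wnt pathway, on which the study's title bears, lay near the rest of the table. CTNNB1 was at 139.4 FPKM in Vector-2, 129.4 in ESM1-NES and 141.2 in ESM1-NLS. Its effective length was 3415 bases, and relative to genes of that length it lay at -0.04. The 18 measured of 26 Wnt target genes had a median of -0.02, 8 above and 10 below 0, with 0 at 1.5-fold in either direction. Relative to length the median was 0.10 with 13 of 18 above 0, and relative to length and GC content it was 0.03 with 10 of 18 above. DKK1, a secreted Wnt inhibitor that Wnt signalling induces, was at 5.05, 6.86 and 6.77 FPKM in Vector-2, ESM1-NES and ESM1-NLS. NOTUM, an enzyme that inactivates Wnt ligands, was at 2.85, 3.87 and 3.53 FPKM. Both tagged libraries were above Vector-2 in both genes. The ratio of ESM1-NES was 1.36 (1.12 to 1.65) for DKK1 and 1.36 (1.08 to 1.71) for NOTUM. In Vector-1 DKK1 was at 29.6 FPKM, above both tagged libraries, so its direction depended on which vector library was taken. AXIN2, the usual reporter of the pathway, was at 1.25, 1.22 and 1.39 FPKM, LEF1 at 7.06, 6.96 and 7.11 FPKM, and neither ratio's interval excluded 1. MYC was at 113.5, 129.6 and 129.0 FPKM and CCND1, which encodes cyclin D1, at 559.6, 492.3 and 553.7 FPKM. CD44 was at 25.9, 24.5 and 25.4 FPKM.

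Among 28 measured ligands, receptors and members of the destruction complex, the median was -0.07. In 24 of 28 ESM1-NES was lower than ESM1-NLS, against 7992 of all 12902 genes. LRP6, a co-receptor, was at 7.69, 4.61 and 6.11 FPKM in Vector-2, ESM1-NES and ESM1-NLS, and was the 1 member past 1.5-fold. Its effective length was 10035 bases, and relative to such genes it lay at -0.24. LRP5, its homologue with a transcript of 5093 bases, was at 10.5, 11.9 and 12.1 FPKM. APC, the scaffold of the destruction complex, was at 4.41, 2.93 and 3.97 FPKM and lay at -0.07 relative to its length. The list's median was 0.10 relative to length and -0.03 relative to length and GC content. Of 21 β-catenin partners, 9 were above and 12 below 0, with a median of -0.06, or 0.11 and -0.01 after the adjustments. JUP, which encodes the junction protein γ-catenin, was at 56.9, 71.4 and 66.2 FPKM, a ratio of 1.25 (1.2 to 1.31). The coactivator gene BCL9L and the corepressor gene TLE3 had ratios of 1.01 and 1.02. With TPM the Wnt target, pathway and partner lists lay at -0.13, -0.19 and -0.18, close to the shift of all genes, and with size factors they lay at 0.02, -0.03 and 0.00.

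Stemness genes had 15 of 23 members measured, with a median of -0.08, or -0.01 relative to length and 0.03 relative to length and GC content. BMI1, a Polycomb protein that maintains stem cells, was at 14.4, 9.05 and 11.9 FPKM in Vector-2, ESM1-NES and ESM1-NLS. Its ratio was 0.628 (0.567 to 0.695), and it still lay at -0.55 relative to genes of its length. POU5F1, the pluripotency factor OCT4, was at 1.95, 1.26 and 1.57 FPKM, a ratio of 0.646 (0.439 to 0.934), and it has several processed copies that can share its reads. KLF4 was at 14.4, 13.4 and 15.2 FPKM and EZH2, the Polycomb methyltransferase, at 35.7, 32.6 and 32.2 FPKM. NES, the gene of the filament protein nestin, which shares only its name with the tag, was at 23.6, 24.4 and 23.3 FPKM. SOX2, at 0.99, 0.8 and 1.07 FPKM, and NANOG, at 0.09, 0.11 and 0.1 FPKM, were under the filter.

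The receptors that carry proteins in and out of the nucleus had a median of -0.15, with 20 of 31 below 0. Relative to genes of their length the median was 0.06 with 20 of 31 above, and relative to length and GC content 0.02. XPO1, the exporter that binds nuclear export signals, was at 77.1 FPKM in Vector-2, 66.6 in ESM1-NES and 72.0 in ESM1-NLS. Its ratio was 0.864 (0.836 to 0.894), and it lay at -0.04 relative to genes of its length. The importer TNPO1 was the 1 member past 1.5-fold, at 36.8, 24.1 and 34.4 FPKM, and lay at -0.20 relative to length. IPO4, which imports histones and ribosomal proteins, lay the other way at 28.5, 37.8 and 34.5 FPKM, a ratio of 1.33 (1.26 to 1.41). RANGAP1 and RCC1, which set the RAN gradient by turning RAN off in the cytoplasm and on in the nucleus, had ratios of 1.2 (1.15 to 1.25) and 1.22 (1.16 to 1.28). XPO6, an exporter of actin, had a ratio of 1.07. Of 29 nuclear pore proteins 20 lay below 0, against 6959 of all 12902 genes. Their median was -0.16, or -0.05 and 0.00 after the adjustments. RANBP2, at the cytoplasmic face of the pore, was at 18.4, 11.5 and 14 FPKM and has an effective length of 11668 bases. NUP155 had a ratio of 0.719, NUP210 of 1.01 and AAAS of 1.28.

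ESM1 normally enters the endoplasmic reticulum and receives a glycosaminoglycan chain, so those routes were listed too. The 38 genes of entry into the reticulum and the early secretory pathway had a median of 0.01, with 20 above and 18 below 0. It was 0.03 relative to length, and 0.09 with 30 of 38 above relative to length and GC content. SSR4, of the translocon-associated complex, was at 184.9, 254.1 and 190.1 FPKM in Vector-2, ESM1-NES and ESM1-NLS, a ratio of 1.37 (1.31 to 1.45). SEC24A, a cargo adaptor of transport vesicles, was at 10.6, 6.81 and 9.36 FPKM, a ratio of 0.645 (0.591 to 0.705). COPG1 had a ratio of 1.17 and SSR1 of 0.909. For the unfolded protein response with ATF4 targets the median was 0.06, and -0.05 with TPM. The chaperone gene HSPA5 was at 225.9, 249.3 and 235.4 FPKM and HYOU1 at 57.5, 61.4 and 58.6 FPKM. DDIT4, an inhibitor of mTOR signalling, was lower than Vector-2 in both tagged libraries, at 116.6, 85.7 and 96.4 FPKM, a ratio of 0.735 (0.7 to 0.77). In Vector-1 it was at 30.1 FPKM, below both tagged libraries, so its direction depended on which vector library was taken. Genes of glycosaminoglycan and proteoglycan synthesis had a median of 0.03, of 0.12 relative to length and of 0.02 relative to length and GC content. CHPF, a chondroitin polymerase, was at 17.5, 23.6 and 21.4 FPKM, a ratio of 1.35 (1.25 to 1.47). The sulphotransferase genes CHST14 and NDST1 had ratios of 1.28 and 0.916, and EXTL3, of heparan sulphate synthesis, 1.11. Of 10 measured ESM1 partners and angiogenic factors, TIMP1, an inhibitor of metalloproteases, had a ratio of 1.38, VEGFA 0.849, HGF 1 and ANGPTL4 1.03, and the list's median was 0.01.

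Androgens drive much of the expression that marks prostate epithelium. Androgen-induced genes lay below 0 in 17 of 20 measured cases, with a median of -0.16, and 17 of 20 were lower than in ESM1-NLS. Of all 12902 genes, 6959 lay below 0 and 7992 were lower than in ESM1-NLS. Relative to length the median was -0.06 with 12 of 20 below 0, and relative to length and GC content -0.06 with 15 of 20 below. FKBP5, a cochaperone gene, was at 288.6 FPKM in Vector-2, 221.0 in ESM1-NES and 277.3 in ESM1-NLS. KLK3, the gene of prostate-specific antigen, was at 20.3, 18.1 and 23.9 FPKM. ESM1-NES was the low library in both. FKBP5 had a ratio of 0.766 (0.751 to 0.781) and KLK3 of 0.895 (0.796 to 1.01), and they lay at -0.26 and -0.27 relative to genes of their length. STEAP2, a metalloreductase, was at 29.9, 20 and 26.7 FPKM, a ratio of 0.667 (0.632 to 0.703). TMPRSS2, a surface protease, was at 10.1, 10.3 and 12.3 FPKM. Against Vector-1 the median of the list was -0.02. Nuclear receptor coregulators and pioneer factors lay at -0.13, and at 0.00 relative to length. The coactivator gene NCOA2 was at 7.97, 4.76 and 6.55 FPKM and lay at -0.40 relative to length, while the pioneer factor gene GATA2 was at 47.1, 51.5 and 59.9 FPKM. HOXB13, a prostate homeobox gene, had a ratio of 1.12.

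Hypoxia and glycolysis genes lay low although they are not long. HIF, the transcription factor stabilised when oxygen is scarce, binds a short core in their promoters and raises glucose uptake, glycolysis and mitophagy. The 30 measured members had a median length of 2657 bases and a median difference of -0.21, with 2 past 1.5-fold. Of the 30, 21 lay below 0, against 6959 of all 12902 genes. Relative to length the median was -0.22, and relative to length and GC content -0.17 with 25 of 30 below 0. In ESM1-NLS the median was -0.14. In 18 of 30 both tagged libraries lay below Vector-2, against 34.6% of all genes. In 27 of 30 Vector-1 lay below Vector-2, against 60.6% of all genes, and ESM1-NES against Vector-1 had a median of 0.20. The direction thus depended on which vector library was taken.

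The members that lay lowest are known HIF targets. BNIP3, a receptor for mitophagy, was at 66.3 FPKM in Vector-2 and 42.8 in ESM1-NES, and at 39.8 in ESM1-NLS and 27.9 in Vector-1. NDRG1, a stress-response gene that androgens also induce, was at 31.3, 21.1, 25.9 and 17.4 FPKM in the same order. P4HA1, a collagen prolyl hydroxylase subunit, was at 39.6, 28.8, 31.1 and 33.9 FPKM. Vector-2 was the highest of the 4 libraries in each of these genes. The ratio of ESM1-NES to Vector-2 was 0.646 (0.603 to 0.691) for BNIP3, 0.676 (0.629 to 0.726) for NDRG1 and 0.726 (0.68 to 0.774) for P4HA1. Relative to length they lay at -0.71, -0.52 and -0.45. BNIP3L, the homologue of BNIP3, had a ratio of 0.713 (0.676 to 0.753). Chosen after its values were seen, ANKRD37 was at 3.82, 1.71, 1.63 and 1.61 FPKM, with a ratio of 0.448 (0.278 to 0.7). The glycolytic enzyme genes split. LDHA was at 440.0, 368.8 and 339.9 FPKM and PGK1 at 332.9, 264.6 and 257.3 FPKM in Vector-2, ESM1-NES and ESM1-NLS. GAPDH was at 3155, 3557 and 3000 FPKM and ALDOA at 476.1, 534.0 and 490.1 FPKM. LDHA and PGK1 were below Vector-2 in both tagged libraries, while GAPDH was above it in ESM1-NES and below it in ESM1-NLS.

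The promoters of 3 low members are shown because HIF is known to act through this part of the gene. They run from 250 bases before to 50 bases after the start in RefSeq on GRCh38.p14, a newer build than the hg19 of the deposited values. Capitals mark each ACGTG or GCGTG, the core of the HIF site, on either strand, and matches on opposite strands can overlap, as in the palindrome CACGTG.
BNIP3, chr10:131981874-131982173, minus strand: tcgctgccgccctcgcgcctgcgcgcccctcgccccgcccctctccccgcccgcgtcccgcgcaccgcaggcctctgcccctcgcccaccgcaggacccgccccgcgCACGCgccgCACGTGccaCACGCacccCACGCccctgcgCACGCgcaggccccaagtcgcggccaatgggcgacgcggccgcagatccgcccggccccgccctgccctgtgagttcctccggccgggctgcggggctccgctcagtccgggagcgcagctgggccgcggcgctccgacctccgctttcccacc
ANKRD37, chr4:185396591-185396890, plus strand: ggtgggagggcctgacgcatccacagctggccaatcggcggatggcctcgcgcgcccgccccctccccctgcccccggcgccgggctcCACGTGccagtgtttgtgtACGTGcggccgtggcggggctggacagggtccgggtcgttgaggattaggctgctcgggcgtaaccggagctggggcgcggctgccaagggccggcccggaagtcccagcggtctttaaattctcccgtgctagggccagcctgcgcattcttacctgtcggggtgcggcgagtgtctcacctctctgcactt
P4HA1, chr10:73096817-73097116, minus strand: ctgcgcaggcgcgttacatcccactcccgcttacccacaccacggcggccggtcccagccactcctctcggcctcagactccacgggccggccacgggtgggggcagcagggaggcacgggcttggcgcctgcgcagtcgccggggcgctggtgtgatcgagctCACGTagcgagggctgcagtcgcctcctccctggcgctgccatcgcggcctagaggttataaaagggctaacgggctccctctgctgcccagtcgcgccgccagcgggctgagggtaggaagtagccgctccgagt
BNIP3 held 6 matches, ANKRD37 3 and P4HA1 1. Of 27 list members with such a window, 19 (70.4%) held at least 1 match, against 13213 of 27305 promoters (48.4%). A match is a description of letters and no evidence that HIF bound there.

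Other stress and growth programmes are best read with ESM1-NLS beside ESM1-NES, both against the same vector library. p53 targets had a median of -0.03 in ESM1-NES and 0.17 in ESM1-NLS. The ESM1-NES median with Vector-1 as control was 0.73. In 24 of 25 targets Vector-1 was lower than Vector-2, against 60.6% of all genes. TP53INP1, a stress-induced autophagy gene, was at 26.8, 19.4 and 31.1 FPKM in Vector-2, ESM1-NES and ESM1-NLS. GADD45A was at 51.2, 45.3 and 57.8 FPKM, and RRM2B, a ribonucleotide reductase subunit, at 19.7, 14.6 and 19.6 FPKM. ESM1-NES was the low library in all 3. PHLDA3, an inhibitor of AKT, was above the vector in both, at 31.4, 39.7 and 40.2 FPKM. Immediate early genes, which growth factors and stress induce within minutes, had a median of -0.06 in ESM1-NES and 0.15 in ESM1-NLS. In 19 of 22, ESM1-NES was below ESM1-NLS, against 7992 of all 12902 genes. FOS was at 2.62, 1.77 and 3.05 FPKM, EGR1 at 4.9, 4.62 and 6.99 FPKM, and JUND at 55.9, 52.9 and 56.8 FPKM. Relative to length and GC content 19 of 22 lay below 0, with a median of -0.14. Against Vector-1 the immediate early median was 0.66, and ATF3, at 53.4 FPKM in Vector-2, 45 in ESM1-NES and 14.5 in Vector-1, shows how far the empty vectors differed.

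Cholesterol synthesis genes had a median of 0.07 in ESM1-NES, of -0.05 with TPM, and of -0.16 in ESM1-NLS. In 23 of 25 ESM1-NES was above ESM1-NLS, against 4855 of all 12902 genes. INSIG1, which holds back the transcription factor SREBP, was at 25.4, 23.4 and 16.6 FPKM in Vector-2, ESM1-NES and ESM1-NLS. TM7SF2, a sterol reductase, was at 42.0, 58.8 and 50.6 FPKM. MVK, MVD and LSS, enzymes of the same route, had ratios to Vector-2 of 1.33, 1.28 and 1.2. Proliferation genes had medians of 0.00 in ESM1-NES and -0.12 in ESM1-NLS, and with Vector-1 as control ESM1-NES lay at -0.51. Of the 34, 30 were higher in ESM1-NES than in ESM1-NLS, against 4855 of all 12902 genes. MKI67, a nuclear protein of cycling cells, was at 21.4, 14.8 and 11.4 FPKM, and CDC20, an activator of the anaphase-promoting complex, at 104.0, 138.1 and 107.1 FPKM. The replication helicase genes MCM2, MCM5 and MCM7 had ratios of 1.14, 1.23 and 1.17. Interferon-stimulated genes had medians of 0.11 in ESM1-NES and 0.07 in ESM1-NLS. IFITM2 and IFITM3, which block virus entry, had ratios of 1.42 (1.3 to 1.55) and 1.40 (1.25 to 1.59) in ESM1-NES, with lengths of 652 and 590 bases. Heat shock proteins had a median of 0.01, and HSPB1 was at 517.2, 729.9 and 644.2 FPKM. Epithelial and mesenchymal state genes had a median of 0.03, with ITGA5 at a ratio of 1.18 and ITGB1 at 0.819.

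Long noncoding RNAs lay on both sides of 0. MALAT1 was at 21.9 FPKM in Vector-2, 14 in ESM1-NES and 17.7 in ESM1-NLS. NEAT1, the scaffold of paraspeckles, was at 35.7, 25.9 and 43.0 FPKM. OIP5-AS1, also called Cyrano, was at 36.8, 24.2 and 29.4 FPKM. ESM1-NES was the low library in all 3, and NEAT1 was the gene among them with ESM1-NLS above the vector. The ratios of ESM1-NES were 0.642 (0.61 to 0.676) for MALAT1, 0.728 (0.686 to 0.772) for NEAT1 and 0.657 (0.603 to 0.715) for OIP5-AS1. OIP5-AS1 is antisense to another gene, and strand use in counting is not given. SNHG16 had a ratio of 1.24 (1.16 to 1.32). The 21 measured long noncoding RNAs had a median of -0.01, and of -0.12 relative to length. Histone genes had a median of 0.04, and of -0.08 relative to length with 13 of 19 below 0. H3F3A, of the replacement histone H3.3, was at 57.7, 46.2 and 77.9 FPKM, so ESM1-NES was the low and ESM1-NLS the high library. H3F3A has processed copies, and its twin H3F3B, which encodes the same protein, was at 183.9, 191.1 and 186.1 FPKM.

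Several of the extreme differences lay in genes that share reads with a copy or a readthrough locus, and these are uncertain. SMN2 was listed at 12.8 FPKM in Vector-2 and at 0 in both tagged libraries, and its near-identical copy SMN1 at 33.8, 45.2 and 44.8 FPKM. The reads of both together gave a ratio of 0.966 (0.898 to 1.04) per mapped read. BAGE4 and BAGE5 traded places in the same way, with a ratio of 0.88 (0.66 to 1.17) for the sum. For FAM224A and FAM224B the summed ratio was 0.923 (0.502 to 1.67), and for GPR75-ASB3 with both its partners, ASB3 and GPR75, 0.883 (0.744 to 1.05). EEF1E1-BLOC1S5, listed at 3.18 FPKM in Vector-2 and 0 in ESM1-NES, had a summed ratio with EEF1E1 and BLOC1S5 of 0.994 (0.919 to 1.07). ADORA2A, an adenosine receptor gene, was at 0.76, 3.39 and 1.7 FPKM while its readthrough locus SPECC1L-ADORA2A was at 2.4, 0.18 and 2.02 FPKM. Their summed reads had a ratio of 0.548 (0.455 to 0.658), and with the other partner, SPECC1L, the ratio was 0.853 (0.802 to 0.907). How the reads were divided among the 3 was not tested. NUDT4P1 had a ratio of 1.56 (1.46 to 1.68) alone and 1.22 (1.15 to 1.28) with NUDT4. The other copy, NUDT4P2, had a ratio of 0.556 (0.517 to 0.598), and the reads of the 3 together gave 0.906 (0.868 to 0.946), so the direction turned with the copies included. MTRNR2L2 and MTRNR2L8, nuclear copies of the mitochondrial 16S rRNA gene, were high in both tagged libraries. MTRNR2L2 was at 585.7, 867.9 and 1227 FPKM and MTRNR2L8 at 248.4, 354.5 and 513.5 FPKM, highest in ESM1-NLS. The near-identical copies had a median of 0.41 over 10 measured members and the 8 readthrough loci 0.17. The 5 highest and 5 lowest of all were taken among official symbols, without Y-linked genes. In Vector-2 and ESM1-NES, others among them were FAM229A at 1.12 and 3.4 FPKM and MBD3L3 at 2.17 and 5.33 FPKM. ATP5EP2 was at 1.82 and 4.67 FPKM, ATP6V1G2-DDX39B at 0.67 and 2.54 FPKM and SNORA109 at 2.51 and 0 FPKM.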

How the data were processed

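RNA sequencing of 5 libraries of 22Rv1 cells was used, 1 per group, grouped by sample title. The submitters' processing notes name the tools Trimmomatic, Bowtie2 and RSEM and the build hg19, without versions or order. Whether the library kit kept strand is not given. The authors deposited expected counts, TPM and FPKM per gene for Vector-2, ESM1-NLS and ESM1-NES, per the file headers. The table of Vector-1 and ESM1 names no unit, and its values were read as FPKM deposited by the authors. That reading rests on the values alone. The authors' fold changes and scores were not used.

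The measure was the difference of log2(FPKM + 1), which understates the change of low genes, for genes whose mean was at least 1 FPKM. Genes were counted at 2-fold and 1.5-fold, and 1.5-fold beyond the median of 20 equal bins of effective length, derived from FPKM and expected counts. The script was tested on simulated data. Expected counts were rounded for intervals; between 82.0% and 84.6% were within 0.005 of a whole number. Of 26506 symbols, 25328 matched RefSeq. GC content and UTR lengths came from GENCODE 29 transcripts of GRCh38, with GC for 97.7% of genes tested.

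No test across samples was possible. edgeR 4.0.16 and DESeq2 1.42.0 gave scale factors only, with Python 3.11.15, pandas 2.3.3, scipy 1.17.1 and R 4.3.3. The members and the 38 gene lists were chosen with earlier results of these data known. Named by rule were ESM1, a set of pathway genes, the 10 highest and 10 lowest coding genes of mean 5 FPKM or more before and after length adjustment, the 5 highest and lowest of all, and up to 4 members per list. Other genes named were chosen after their values were seen. The rule left out Y-linked genes and XIST, and the 5 highest and lowest were taken among official symbols. Y-linked genes stay in the counts of genes. Some genes that the rule covers are not reported here, and 1 was left out of its list. Alternatives were the unit, pseudocount, filter, scaling, gene class, length bins and control library.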

Additional observations from a re-analysis of the deposited data

How the results depend on the processing

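No paired analysis was possible because each group has 1 library, and for the same reason no replicate could be left out. Depth limits low genes: in each library 3 reads was the floor. The lean to lower genes at 1.5-fold, 279 against 50, held in direction under each alternative for which it was counted. Apart from ESM1-NLS as control, these runs used the same ESM1-NES and Vector-2 libraries, so they are no independent check. No such count is given with Vector-1 as control. With TPM the counts were 20 higher and 70 lower at 2-fold, 835 lower at 1.5-fold, and 69 higher and 249 lower relative to length, with the longest genes at -0.52. A pseudocount of 0.1 gave 18 and 73 at 2-fold, 135 and 596 at 1.5-fold, and 96 and 316 relative to length. A pseudocount of 5 gave 1 and 1, 4 and 39, and 3 and 30, with the longest genes at -0.23. Without a filter 15 were higher and 29 lower at 2-fold, 88 and 331 at 1.5-fold, and 66 and 174 relative to length. The longest genes then lay at -0.30. A mean of 5 FPKM or more left 2 and 6, 12 and 154, and 4 and 63. Size factors gave 82 higher and 187 lower at 1.5-fold. Coding genes alone gave 4 and 11 at 2-fold, and 12 and 85 relative to length. With ESM1-NLS as control 11 were higher and 7 lower at 2-fold, so the lean to lower genes did not hold at that limit. At 1.5-fold 46 were higher and 100 lower under this control, with the longest genes at -0.21.

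Some list medians changed sign. With TPM the unfolded protein response and ATF4 targets lay at -0.05, cholesterol synthesis at -0.05 and translation factors at -0.06. TPM shifted the median of all genes by -0.12, and relative to length each of these lists lay at 0.04 with TPM. The cause of the sign changes that follow was not tested. With coding genes alone the near-identical copies lay at -0.05, and at -0.06 relative to length. With ESM1-NLS as control they lay at -0.17 and -0.13, and the readthrough loci at -0.08. Relative to length under that control, nuclear pore proteins lay at 0.06, proliferation genes at 0.19 and giant transcripts at 0.11, and single genes turned for BNIP3, at 0.10, and AHNAK, at 0.12. With Vector-1 as control hypoxia and glycolysis genes lay at 0.20, cholesterol synthesis at -0.45 and immediate early genes at 0.66.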
